A study of Sus scrofa with 23 samples.

Results

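OAZ3, which encodes ornithine decarboxylase antizyme 3, was followed in porcine skeletal muscle together with the other antizymes and the core enzymes of polyamine metabolism. The genes considered were OAZ3, OAZ1, OAZ2, ODC1, AMD1, SRM, SMS and SAT1. A probe was taken as a member when the array annotation gave 1 of these symbols as its gene name or in parentheses in its description. This selected 4 of the 5247 genes named on the array, with 16 of its 43603 probes, namely 2 for OAZ3, 5 for OAZ1, 2 for OAZ2 and 7 for SAT1, and none for the other 4 genes. A reference gene table paired 4 further probes with member genes, 1 with ODC1 and 3 with SMS, and these are kept apart from the 16. No probe was named as AMD1 or SRM. A probe paired with AMD1 by gene ID was left unnamed, since its description gave another gene. OAZ3 was chosen by its measured difference between the low-RFI and high-RFI pigs on these same arrays, so that difference is given as a description without a p-value, and its place in counts of calls is no evidence of it.

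The samples were Longissimus, a muscle along the spine, taken from 23 pigs that weighed 115 kg. Residual feed intake, shortened to RFI, compares what an animal eats with what its growth and maintenance predict, and a pig of low RFI eats less than predicted. The groups were 7 pigs of the low-RFI strain fed freely (RFIneg in the labels), 8 pigs of the high-RFI strain restricted to the feeding level of the low strain (RFIplR) and 8 pigs of the high-RFI strain fed freely (RFIpl). Low-RFI pigs on another feeding level were not analysed here, so strain was compared both with free feeding and with the restricted high-RFI pigs at the low strain's feeding level. The labels name no breed or sex, and anything else that differs between the strains cannot be told apart from residual feed intake.

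Polyamines (putrescine, spermidine and spermine) are small cations that bind nucleic acids and are needed for growth and protein synthesis. Ornithine decarboxylase (ODC1) makes putrescine, AMD1 provides the aminopropyl donor, SRM and SMS build spermidine and spermine, and SAT1 acetylates polyamines for breakdown and export. Antizymes are made when polyamines are abundant, through a frameshift during translation. They bind ornithine decarboxylase and lower polyamine uptake, and antizyme 1 directs the enzyme to the proteasome. OAZ1 and OAZ2 are known from most tissues, whereas OAZ3 is known in mouse and human from haploid male germ cells.

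The probes that carry the OAZ3 result are shown first, 5′ to 3′ in lower case, because they gave differences of unlike size. The number in each name is the start position that the array annotation gives for the probe on its transcript.
OAZ3 probe at 88: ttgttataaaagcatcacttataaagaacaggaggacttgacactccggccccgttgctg
OAZ3 probe at 451: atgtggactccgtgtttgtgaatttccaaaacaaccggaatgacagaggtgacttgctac
Each has 60 bases and a GC content of 45.0%. In each, 1 of the 3 forward reading frames held no stop codon. Neither shared a run of 16 bases, on either strand, with any of the other 43602 probes. No genome build is given for the array, so no genome position is stated.

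Levels are log2 processed signal minus the 75th percentile of the same array, so 0 marks a bright probe and most of the array lies below it. They serve to compare pigs for 1 probe and do not rank probes against each other. Between 41.6% and 79.0% of the probes of an array were well above background by the scanner software's flag, with medians of 69.3% in low-RFI, 67.25% in restricted and 67.95% in high-RFI pigs. The arrays lay on 6 slides, each with all 3 groups. The 4 arrays of slide 3 (low-RFI replicate 7, restricted replicates 6 and 8, high-RFI replicate 5) reached at most 58.8%. Of 8 skeletal muscle markers, 5 were measured, ACTA1 and CKM among them. Their summed level, in multiples of the array's 75th percentile, was 3990 to 4650 in low-RFI, 3520 to 4870 in restricted and 3500 to 4530 in high-RFI pigs. In tissue RNA, fewer cells of a type and less RNA per cell cannot be told apart.

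OAZ3 was lower in low-RFI pigs than in either high-RFI group, and restriction of the high-RFI pigs went with no detectable difference. The larger gap was at the probe at 451. Its level ran from -6.63 to -2.34 in low-RFI pigs with a median of -6.06, from -2.49 to -0.99 in restricted pigs with a median of -1.83, and from -2.48 to -1.06 in high-RFI pigs with a median of -1.53. The 3 groups averaged -5.54 ± 1.45 (SD, n = 7), -1.74 ± 0.64 (n = 8) and -1.70 ± 0.55 (n = 8) in that order. The processed signal was 4.29 to 80.6 units in low-RFI pigs, 79.7 to 245 in restricted pigs and 72.2 to 254 in high-RFI pigs.

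By the scanner flag, the probe at 451 exceeded background on 0 of 7 low-RFI arrays, 8 of 8 restricted arrays and 8 of 8 high-RFI arrays. It was the only 1 of the 43603 probes with this pattern. The reverse, with all low-RFI arrays and no high-strain array above background, was shown by 0 probes. The pattern was read off this probe, and OAZ3 was chosen on these low-RFI arrays, so these counts are no evidence of the difference. With 0 of 7 low-RFI arrays above background, the probe gave an approximate bound and not a level in low-RFI pigs. Each low-RFI array was set to the higher of its own value and the dimmest probe of that array above background. By group means the probe was then 8.28-fold lower in low-RFI than in high-RFI pigs and 8.07-fold lower than in restricted pigs. The dimmest such probe is not a strict limit, since the OAZ3 probe went unflagged just above it on some arrays. Its signal was 6.86 against 6.84 in low-RFI replicate 6 and 80.6 against 79.16 in replicate 7. These folds are approximate, carry no sampling error and hold for the scanner software's background only.

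Low-RFI replicate 7, on slide 3, stood at -2.34, while the other 6 low-RFI pigs stood between -6.63 and -5.61. The dimmest probe above background on its array was at -2.37, against -5.78 to -4.37 on the other 6 low-RFI arrays. Without this pig, a choice made after its value was seen, the approximate bounds were 10.9-fold against high-RFI and 10.7-fold against restricted pigs. It is also the only low-RFI pig whose value overlaps the high-strain groups.

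**Figure D1:**
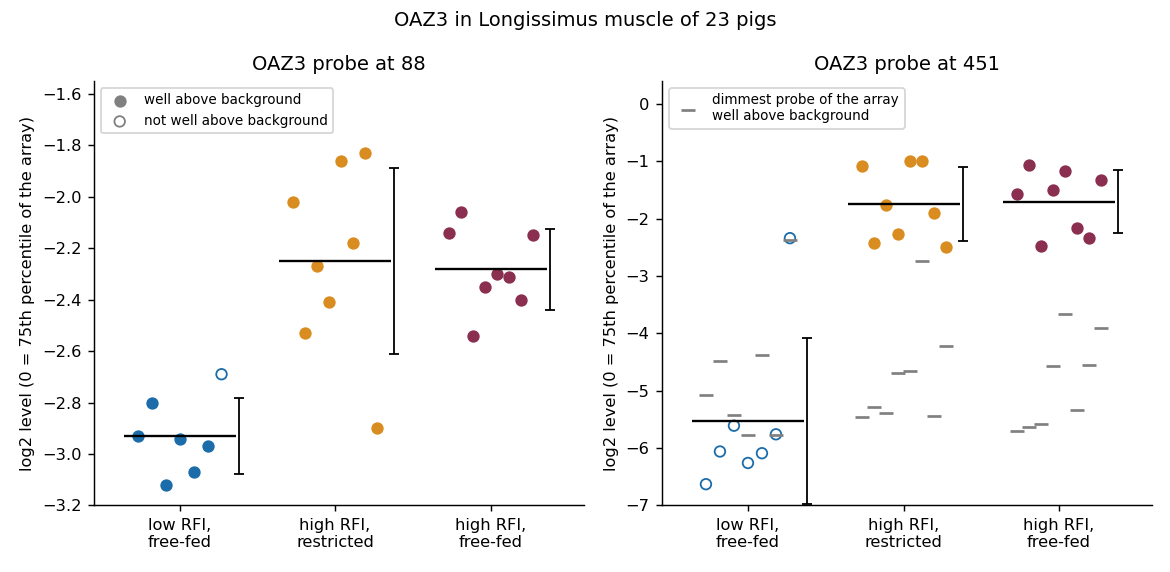
Log2 level of both OAZ3 probes in each pig, by group, with filled circles for arrays on which the probe was well above background, open circles where it was not, black lines for the group mean and bars for 1 SD. The grey dashes at the probe at 451 mark the dimmest probe above background on the same array, and 6 of the 7 low-RFI pigs lie between -6.63 and -5.61.

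The measured means, which in low-RFI pigs come from signals not above background, differed by -3.84 on the log2 scale between low-RFI and high-RFI pigs and by -3.80 between low-RFI and restricted pigs. No p is given for these, since the probe passed the filter on dim probes only through the groups in which it was high, and OAZ3 was chosen on the low-RFI arrays. When the background was instead modelled with normexp and an offset of 50 added, the difference of low-RFI from restricted pigs was -1.08. With a background estimated from the negative controls and an offset of 16 it was -2.20. Both also used quantile normalization. An added offset itself shrinks log2 differences between dim signals, so these values do not show the effect of the background alone. Restricted and high-RFI pigs differed by -0.04 (95% interval -0.95 to 0.87, adjusted p = 0.994 in limma), and their values overlapped throughout.

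The OAZ3 probe at 88 had a smaller gap. Its level was -3.12 to -2.69 in low-RFI pigs with a median of -2.94, -2.90 to -1.83 in restricted pigs with a median of -2.23, and -2.54 to -2.06 in high-RFI pigs with a median of -2.31. Low-RFI and high-RFI pigs did not overlap, whereas the lowest restricted pig, at -2.90, lay among the low-RFI pigs. The group means were -2.93 ± 0.15 (SD, n = 7) in low-RFI, -2.25 ± 0.36 (n = 8) in restricted and -2.28 ± 0.16 (n = 8) in high-RFI pigs. It exceeded background on 6 of 7 low-RFI arrays, all but that of replicate 7, and on all arrays of the other groups.

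Low-RFI pigs differed from high-RFI pigs by -0.65 at this probe (standard error 0.13, 95% interval -0.92 to -0.38), or 0.637 times the high-RFI level. OAZ3 was chosen by its difference in this comparison, and the interval makes no allowance for that choice. Low-RFI pigs differed from restricted pigs by -0.68 (standard error 0.13, 95% interval -0.95 to -0.42, adjusted p = 0.0256 in limma), or 0.623 times the restricted level. This test shares the low-RFI arrays with the difference by which OAZ3 was chosen. Its p is therefore not independent of that choice and tends to be too small. Restricted and high-RFI pigs differed by 0.03 (95% interval -0.22 to 0.29, adjusted p = 0.974). With slide as a fixed block the adjusted p against restricted pigs was 0.0694 at an almost equal difference of -0.67, so this call depends on the setting (0.00397 to 0.103 over 14 alternatives). It was also lost when 1 of 5 single pigs was left out (low-RFI replicates 1, 3, 5 and 6 and restricted replicate 6), with adjusted p up to 0.0658.

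Within slides, the direction was the same throughout. Both OAZ3 probes were lower in low-RFI than in high-RFI pigs on 6 of 6 slides. They were also lower than in restricted pigs on 6 of 6 slides. Many of these signs were fixed by the values already given. At the probe at 88 low-RFI and high-RFI pigs did not overlap. At the probe at 451 only low-RFI replicate 7, on slide 3, overlapped the high-strain pigs. OAZ3 was also chosen on these arrays, so the counts are a description and no further evidence. For the probe at 451 the slide differences from high-RFI pigs ran from -4.70 to -1.17 and those from restricted pigs from -4.52 to -0.61. The smallest of each was on slide 3. For the probe at 88 they ran from -0.91 to -0.39 against high-RFI and from -1.12 to -0.15 against restricted pigs. By scan day, the probe at 451 differed from restricted pigs by -3.42 on the first day and -4.30 on the second.

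**Figure D2:**
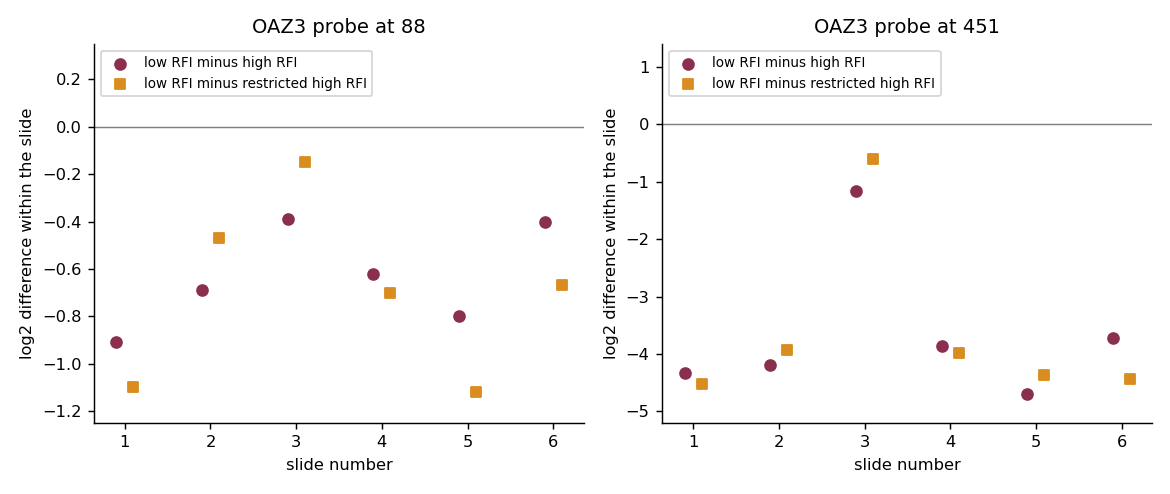
Log2 difference of low-RFI pigs from high-RFI pigs (circles) and from restricted high-RFI pigs (squares) within each of the 6 slides, for the OAZ3 probes at 88 and 451. All points lie below 0, and slide 3 has the smallest differences at the probe at 451, -1.17 and -0.61.

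The 2 OAZ3 probes, which share no sequence, also followed each other among pigs of the same group. Over the 8 restricted pigs Pearson's r was 0.73 (exact permutation p = 0.0368, adjusted over the 2 groups 0.0368) and Spearman's rho 0.74 (exact p = 0.0458, adjusted 0.0458). Over the 8 high-RFI pigs r was 0.79 (exact permutation p = 0.0207, adjusted 0.0368) and rho 0.79 (exact p = 0.0279, adjusted 0.0458). Without the 2 pigs farthest from the median of the probe at 88, r was 0.91 in restricted and 0.52 in high-RFI pigs, over 6 pigs each. A slide holds at most 2 pigs of a group and a scan day 4, so r within batches was not computed, and the probes share each pig's array. The relation was not computed in low-RFI pigs, in which the probe at 451 was not above background.

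**Figure D3:**
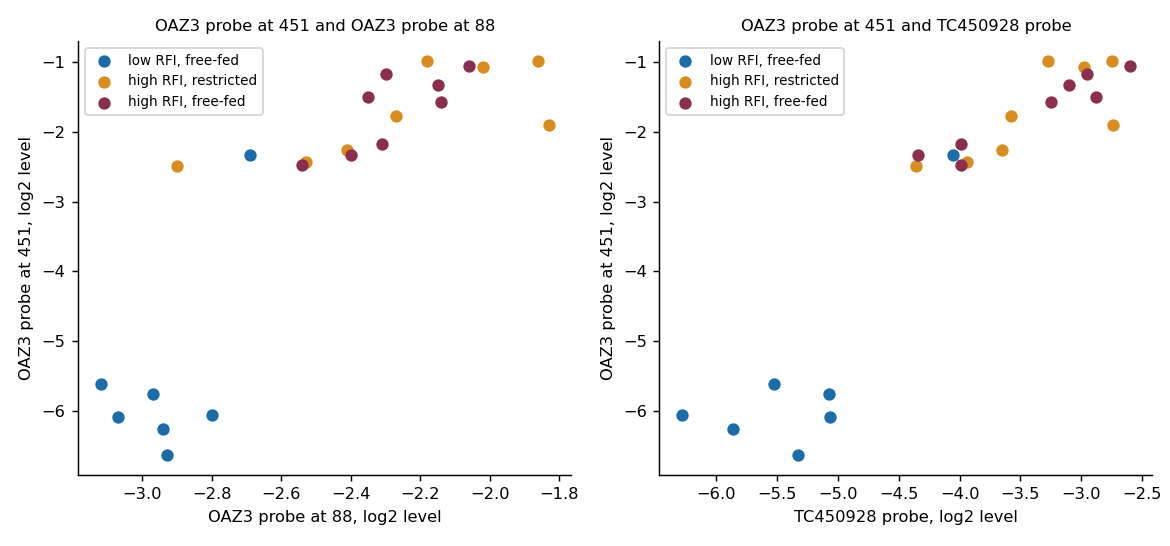
Log2 level of the OAZ3 probe at 451 in each of the 23 pigs against the OAZ3 probe at 88 (left) and against the unnamed probe TC450928 (right), coloured by group. In 6 low-RFI pigs both axes are low, and low-RFI replicate 7, at -2.34 on the vertical axis, lies beside the high-strain pigs.

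Genes with a pattern like that of OAZ3 were listed by Pearson's r over the 23 arrays, as a description, since arrays share their slide and groups. For the probe at 451 the 5 named genes of highest r were CD40 (0.88), a receptor of antigen-presenting cells, DLD (0.75), a dehydrogenase shared by several mitochondrial complexes, TMEM70 (0.74), an assembly factor of ATP synthase, SAL1 (0.73), a salivary lipocalin, and MTERF3 (0.72), a mitochondrial transcription factor. After removal of the group means r was 0.45 for CD40, -0.06 for DLD, 0.57 for TMEM70, 0.37 for SAL1 and 0.39 for MTERF3. For the probe at 88 they were CD40 (0.76), UAP1 (0.67), SAL1 (0.66), FUT2 (0.64) and HSD17B4 (0.61), with 0.19, 0.24, 0.29, 0.43 and 0.28 after removal of the group means. The OAZ3 probes had r of 0.86 with each other and 0.53 after that removal. All r with the probe at 451 include the low-RFI arrays, on which it was not above background. They also include low-RFI replicate 7, at -2.34 against a low-RFI mean of -5.54, which weighs heavily after removal of the group means.

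The highest r with either OAZ3 probe belonged to TC450928, a probe without a gene name that was singled out after its values were seen. Its r was 0.93 with the probe at 451 and 0.89 with the probe at 88, and 0.76 and 0.67 after removal of the group means, when it ranked 3 and 25 among the other probes. Its level ran from -6.28 to -4.05 in low-RFI, from -4.36 to -2.74 in restricted and from -4.34 to -2.60 in high-RFI pigs. It was well above background on 1 of 7, 6 of 8 and 7 of 8 arrays in that order. Its means were -5.31 ± 0.71 (SD, n = 7) in low-RFI, -3.41 ± 0.58 (n = 8) in restricted and -3.39 ± 0.63 (n = 8) in high-RFI pigs, and the ranges overlapped. They are given without a test, since the probe was picked for its likeness to OAZ3 and was mostly not above background in low-RFI pigs. Its r with the probe at 451 likewise includes the low-RFI arrays, replicate 7 among them.

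The nearest genes to OAZ3 with a tested probe lay 2 places away on 1 side and 7 on the other, and no probe was named for those directly beside it. In the gene order of the Sscrofa11.1 annotation, the 5 nearest genes with a probe on each side were S100A11, TCHHL1, RPTN, CRNN and C4H1orf68 before it, 7 to 20 places away, and RIIAD1, SNX27, TUFT1, POGZ and PSMB4 after it, 2 to 8 places away. TCHHL1 and RPTN, genes of the skin barrier, were too dim to be tested. Of the 20 tested probes of the other 8 genes, 0 passed the threshold in any comparison by limma, with 0 at an unadjusted p under 0.05 for low-RFI against high-RFI pigs, 4 for restricted against high-RFI pigs and 5 for low-RFI against restricted pigs. Over all probes the shares at an unadjusted p under 0.05 were 11.1%, 9.75% and 10.2%, and 10 of the 20 probes belong to PSMB4. The nearest, RIIAD1, differed by 0.05 between low-RFI and high-RFI pigs, 0.02 between restricted and high-RFI pigs and 0.03 between low-RFI and restricted pigs. The most negative gene value for low-RFI against high-RFI was -0.37, at TUFT1, an enamel protein.

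Markers of other cell types were set beside the OAZ3 result. Of 12 male germ cell markers, 7 had a probe and 5 were measured (PRM1, PRM2, TNP2, ACRV1 and ZPBP). By the filter, the 5 measured were well above background on 6 or more arrays of at least 1 group. The others with a probe, DDX4 and ODF1, were not well above background on any array. The summed level of the 5 was 0.465 to 0.889 in low-RFI, 0.460 to 1.05 in restricted and 0.458 to 0.838 in high-RFI pigs, and 0 passed the threshold in any comparison. Of 4 nerve and Schwann cell markers, UCHL1 alone was measured, and it fell in low-RFI against restricted pigs at both of its probes. The brighter differed by -1.07 (standard error 0.21, adjusted p = 0.039 in limma), with levels of 2.85 ± 0.44 (SD, n = 7) in low-RFI and 3.92 ± 0.36 (n = 8) in restricted pigs. High-RFI pigs lay between, at 3.47 ± 0.48 (n = 8), without a call against either other group. The 4 measured adipocyte markers summed to 15.7 to 44.1 in low-RFI, 17.5 to 67.8 in restricted and 18.2 to 109 in high-RFI pigs, without a call. The part of nerve or adipose tissue in the OAZ3 result was not tested.

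Across the comparisons, OAZ3 supplied every call among the 16 member probes. For low-RFI against high-RFI pigs 2 of 16 passed an adjusted p of 0.05, both OAZ3 and both lower, in the comparison by which OAZ3 was chosen. Of all 27803 probes tested 34 passed (0.122%), and 22 were lower (0.0791%). For restricted against high-RFI pigs 0 of 16 passed, with 0 at an unadjusted p under 0.05, and 1 of all probes passed (0.0036%). For low-RFI against restricted pigs 2 of 16 passed, both OAZ3 and both lower. These calls use the low-RFI arrays on which OAZ3 was chosen, so they are not separate evidence. Of all probes 45 passed (0.162%), 25 of them lower (0.0899%). The median difference of the 14 other member probes was -0.14, -0.16 and -0.02 in these comparisons, against 0.02, 0.01 and 0.02 for all probes. Of these 14 probes 7 were SAT1, some overlapping in sequence, so the medians depend strongly on that gene. In the same order the medians were -0.24, -0.21 and -0.04 for SAT1 and 0.08, 0.08 and 0.00 for the 5 OAZ1 probes. For the 2 OAZ2 probes they were -0.02, 0.03 and -0.05. These comparisons share groups, so their values are given side by side only.

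**Figure D4:**
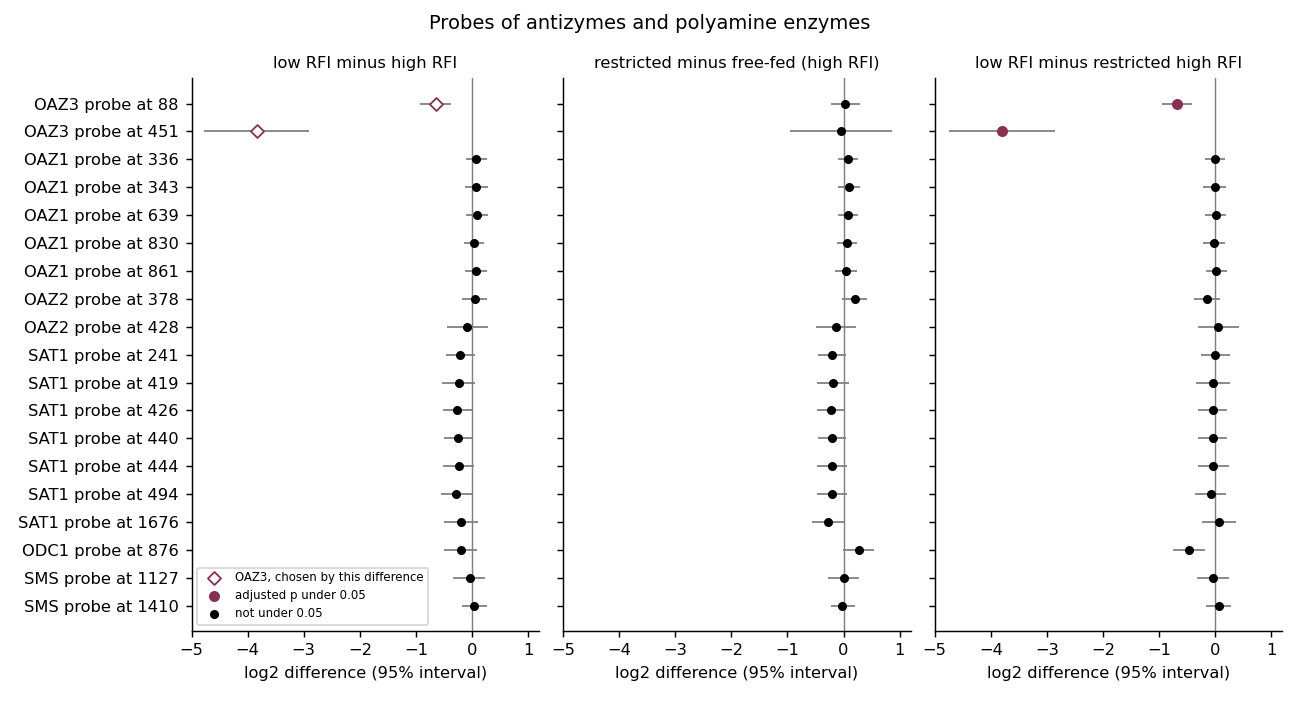
Log2 difference of each tested probe of the member genes with its 95% interval in the 3 comparisons, with ODC1 and SMS probes as paired by the reference table. Open diamonds mark OAZ3 in the comparison that chose it, large filled circles an adjusted p under 0.05 and small circles the rest, which lie between -0.47 and 0.27. The intervals of the OAZ3 probe at 451 in the comparisons of low-RFI pigs rest on signals not above background. Its filled circle against restricted pigs rests on them too and is no evidence of the difference.

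OAZ1, the widely expressed antizyme, differed little between groups at each of its 5 probes, and none passed the threshold. At the probe at 861, levels ran from 8.34 to 8.67 in low-RFI pigs with a median of 8.48, from 8.12 to 8.68 in restricted pigs with a median of 8.51, and from 8.12 to 8.69 in high-RFI pigs with a median of 8.39. The groups overlapped almost wholly. Over the 5 probes the difference was 0.03 to 0.09 for low-RFI against high-RFI, 0.05 to 0.10 for restricted against high-RFI pigs and -0.02 to 0.02 for low-RFI against restricted pigs. The 95% intervals of the probe at 861 were -0.13 to 0.27, -0.15 to 0.24 and -0.17 to 0.22, so a difference as large as that of either OAZ3 probe lay outside them. Of the 5 probes, 4 overlap another in sequence and are not separate measurements.

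The array also holds a probe on the opposite strand of OAZ1. The annotation describes TC513779 as an antizyme, yet the capitals mark 39 bases in which it is the reverse complement of the OAZ1 probe at 343.
OAZ1 probe at 343: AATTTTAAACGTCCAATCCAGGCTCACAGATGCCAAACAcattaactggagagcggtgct
TC513779 probe: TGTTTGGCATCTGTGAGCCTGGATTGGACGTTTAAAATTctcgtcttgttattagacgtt
It was well above background on every array, at -0.73 ± 0.13 (SD, n = 7) in low-RFI, -0.70 ± 0.11 (n = 8) in restricted and -0.77 ± 0.20 (n = 8) in high-RFI pigs. It was not counted as a member, and its differences of 0.04, 0.06 and -0.02 did not pass the threshold.

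OAZ2, the antizyme conserved across vertebrates, showed no call at either probe. The probe at 378 ran from -0.75 to -0.18 in low-RFI pigs with a median of -0.41, from -0.37 to -0.05 in restricted pigs with a median of -0.29, and from -0.77 to -0.03 in high-RFI pigs with a median of -0.53. It differed by 0.05 for low-RFI against high-RFI (95% interval -0.17 to 0.27), 0.20 for restricted against high-RFI (-0.02 to 0.41) and -0.15 for low-RFI against restricted pigs (-0.37 to 0.08). The dim probe at 428, above background on 6 arrays of each group, differed by -0.08, -0.14 and 0.05.

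ODC1, the enzyme that antizymes bind, was measured by 1 probe, which the files list under an older symbol.
ODC1 probe at 876: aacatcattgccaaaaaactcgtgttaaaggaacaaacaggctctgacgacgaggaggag
Its level was -0.06 to 0.57 in low-RFI pigs with a median of 0.33, 0.39 to 0.96 in restricted pigs with a median of 0.84, and 0.00 to 1.01 in high-RFI pigs with a median of 0.42. Low-RFI pigs lay in the lower part of the restricted range or below it. The difference from restricted pigs was -0.47 (standard error 0.14, 95% interval -0.75 to -0.18), with an unadjusted p of 0.00286 and an adjusted p of 0.224 in limma, so it did not pass. Low-RFI and high-RFI pigs differed by -0.20 (95% interval -0.49 to 0.09), and restricted and high-RFI pigs by 0.27 (-0.01 to 0.55).

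SMS, spermine synthase, had 3 probes, of which that at 1095 was above background on 5 arrays of each group and was not tested. The probe at 1410 ran from 1.57 to 2.14 in low-RFI, from 1.63 to 2.06 in restricted and from 1.42 to 2.10 in high-RFI pigs. Its differences were 0.04 (95% interval -0.18 to 0.26) for low-RFI against high-RFI, -0.02 (-0.23 to 0.20) for restricted against high-RFI pigs and 0.06 (-0.17 to 0.28) for low-RFI against restricted pigs. The probe at 1127 differed by -0.04, 0.00 and -0.04.

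SAT1, the acetyltransferase of polyamine breakdown, passed the threshold in no comparison at any of its 7 probes. All 7 probes were negative for low-RFI against high-RFI, from -0.28 to -0.19, with adjusted p of 0.442 to 0.681 and 1 probe at an unadjusted p under 0.05. All 7 were also negative for restricted against high-RFI, from -0.27 to -0.19, with adjusted p of 0.564 to 0.707, and both comparisons use the same high-RFI arrays. For low-RFI against restricted pigs they ran from -0.08 to 0.07. Of the 7 probes, 4 overlap another in sequence, so the count of probes does not count measurements.

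At the SAT1 probe at 494, levels ran from 1.18 to 1.71 in low-RFI pigs with a median of 1.47, from 1.13 to 1.96 in restricted pigs with a median of 1.68, and from 1.49 to 2.23 in high-RFI pigs with a median of 1.67. The groups overlapped. The difference was -0.28 (95% interval -0.56 to 0.00) for low-RFI against high-RFI, -0.20 (-0.47 to 0.07) for restricted against high-RFI pigs and -0.08 (-0.36 to 0.19) for low-RFI against restricted pigs.

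The other genes of polyamine supply, transport and use were taken as a list of 32, of which 19 had a probe and 17 a tested one. Of their 47 tested probes, 0 passed the threshold in any comparison by limma, with 4, 1 and 3 at an unadjusted p under 0.05 for low-RFI against high-RFI, restricted against high-RFI pigs and low-RFI against restricted pigs. Over all probes the shares were 11.1%, 9.75% and 10.2%, and all 3 counts are smaller shares of the 47. The median differences were 0.02, 0.04 and -0.04, against 0.02, 0.01 and 0.02 over all probes. The antizyme inhibitors AZIN1 and AZIN2, which release ornithine decarboxylase from antizymes, were picked after their values were seen. Over 6 probes AZIN1 differed by -0.25 to 0.07 for low-RFI against high-RFI pigs, by -0.08 to 0.19 for restricted against high-RFI pigs and by -0.33 to -0.04 for low-RFI against restricted pigs. Over 2 probes AZIN2 differed by 0.00 to 0.05, by -0.09 to 0.33 and by -0.27 to 0.08 in the same order.

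SLC7A2, a transporter of arginine, ornithine and lysine, came nearest to a call. Its level was 2.81 to 3.83 in low-RFI pigs with a median of 3.34, 1.69 to 2.82 in restricted pigs with a median of 2.56, and 2.08 to 3.50 in high-RFI pigs with a median of 2.55. Low-RFI values overlapped the restricted ones at 2.81 to 2.82, and the highest high-RFI pig, at 3.50, lay above the low-RFI median. The difference was 0.90 for low-RFI against restricted pigs (standard error 0.19, adjusted p = 0.0552 in limma) and 0.78 for low-RFI against high-RFI pigs (standard error 0.19, adjusted p = 0.125 in limma), and -0.12 for restricted against high-RFI pigs. Against restricted pigs it passed under 7 of 15 alternatives (adjusted p 0.0189 to 0.277 over all 15) and without 1 pig in 2 of 23 fits, namely without low-RFI replicate 4 (0.0408) or without high-RFI replicate 3 (0.026). Without high-RFI replicate 3 it also passed against high-RFI pigs, at a difference of 0.91 (adjusted p = 0.0254 in limma).

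The other genes with the smallest p did not pass. AHCY, which removes S-adenosylhomocysteine, differed by 0.28 and MAT2B, the regulatory subunit of methionine adenosyltransferase, by 0.16 between low-RFI and high-RFI pigs (adjusted p 0.369 and 0.603). Arginase ARG1 differed by -0.57, SAT2, a relative of SAT1, by 0.28 and MAT2B by 0.13 between restricted and high-RFI pigs (adjusted p 0.702, 0.724 and 0.729). SLC7A1, a cationic amino acid transporter, differed by -0.55 and SLC3A2, the heavy chain of several amino acid transporters, by -0.56 between low-RFI and restricted pigs (adjusted p 0.534 and 0.562). The second tested probes of MAT2B and SLC3A2 went the other way, by -0.13 for MAT2B between low-RFI and high-RFI pigs, -0.11 for MAT2B between restricted and high-RFI pigs and 0.05 for SLC3A2 between low-RFI and restricted pigs.

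**Figure D5:**
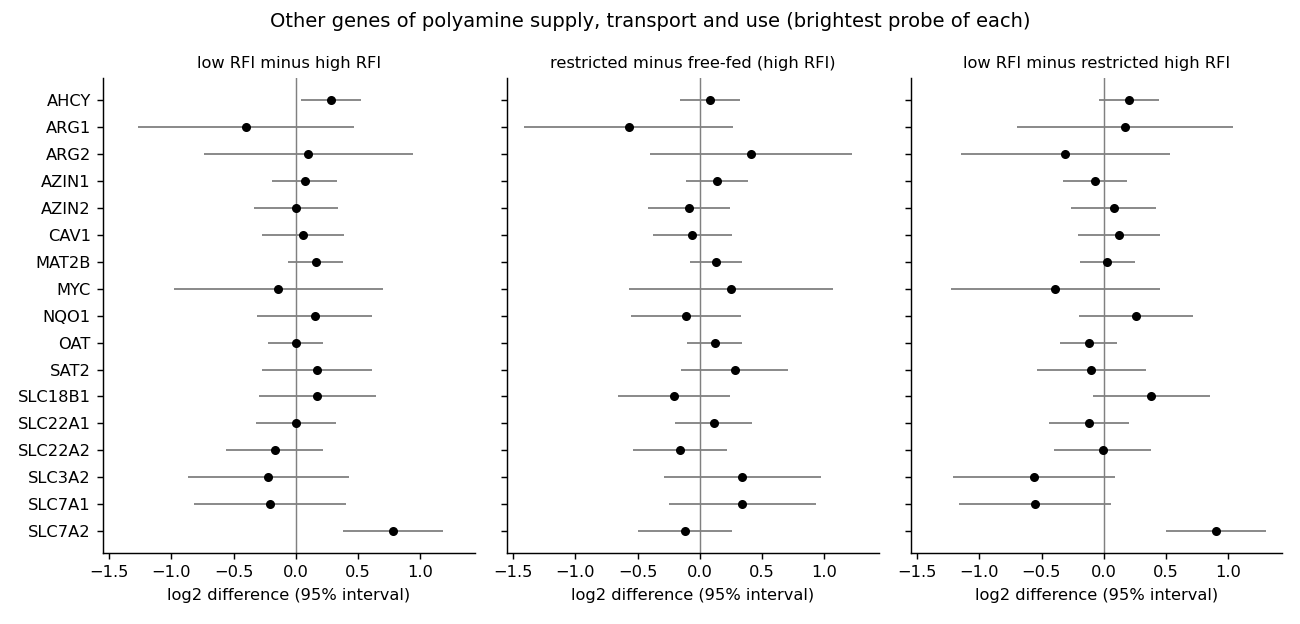
Log2 difference with its 95% interval for the brightest tested probe of each of 17 other polyamine pathway genes in the 3 comparisons. SLC7A2 lies farthest above 0, at 0.78 and 0.90 in the comparisons of low-RFI pigs, and no gene passed an adjusted p of 0.05.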

How the data were processed

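Each of 23 pigs gave RNA for 1 array read in 1 colour. Per the file headers, Feature Extraction 10.7.3.1 subtracted the background from each spot intensity value, with no scaling across arrays. The deposited log2 table was the log2 processed signal minus a constant per array, with column medians of 0, and was used as an alternative. R 2.10.0 appears in the submitters' processing notes.

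The processed signal was taken to log2 and the array's 75th percentile subtracted. Outlier spots were left out, and repeated spots of a probe averaged. A probe was kept when 6 or more arrays of any 1 group had it well above background (27803 of 43603, 484 values missing), and all 16 members were among them. A single limma model of the 3 groups (limma 3.58.1, R 4.3.3) gave the tests, with p adjusted by Benjamini-Hochberg over the kept probes of a comparison and a threshold of 0.05. Exact permutations used scipy 1.17.1. Precision is limited by the number of arrays.

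The members and lists were chosen with earlier results of these data known. All member probes, the pathway genes that passed and the 3 of smallest p per comparison, 5 neighbours on each side and the 5 most alike genes per OAZ3 probe are named, and a gene is represented by its brightest kept probe. Probes whose symbol was at odds with their description were not named. Gene order and updated symbols came from a RefSeq table of Sscrofa11.1. The test was tried on simulated data. Alternatives covered background correction, scaling, filters, slide and scan day, the replicate number as a block, weights and leaving out each pig.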

Additional observations from a re-analysis of the deposited data

Results flagged for a closer look

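Among 60 sets of values (20 probes in 3 groups), 5 held a pig far from the rest of its group, where chance gives about 1 in 20. At the OAZ3 probe at 451, low-RFI replicate 7 stood at -2.34 and the next low-RFI pig at -5.61, on an array of slide 3 whose dimmest probe above background was at -2.37. Restricted replicate 4 was lowest of its group at the OAZ1 probe at 336 (5.69, next 5.98) and at the OAZ1 probe at 830 (7.57, next 7.84), both on the same array. Low-RFI replicate 4 was highest at the SMS probe at 1127 (-0.49, next -1.02). Restricted replicate 3 was highest at the SMS probe at 1410 (2.06, next 1.77).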

How the results depend on the processing

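The measured difference of the OAZ3 probe at 451 ran from -4.29 to -1.08 over 13 alternatives and from -4.37 to -3.65 over 23 fits without 1 pig against high-RFI pigs, and from -4.33 to -1.08 and from -4.33 to -3.62 against restricted pigs. Both values of -1.08 came with normexp, whose added offset of 50 itself shrinks differences between dim signals. The deposited table and the filter for probes above background on all arrays did not hold this probe. That filter also left out the OAZ3 probe at 88, which was not above background in low-RFI replicate 7. No OAZ3 probe was therefore tested under it. The number of member probes passing for low-RFI against high-RFI pigs was 1 in place of 2 under median centring, normexp, robust normexp, the deposited table, no filter, slide as a fixed block and the replicate block, and 0 with only probes above background on all arrays. For low-RFI against restricted pigs it was 1 under normexp, robust normexp, the deposited table, no filter, slide as a fixed block, the replicate block and the fit of 2 groups, and 0 with only probes above background on all arrays. Every member probe that passed was an OAZ3 probe, and OAZ3 was chosen on these low-RFI arrays. The counts are therefore a description and no evidence of the difference. Without 1 pig each count ran from 1 to 2. Against high-RFI pigs it was 1 without low-RFI replicates 1 to 6, high-RFI replicates 1, 2, 4, 5, 6 or 8, or restricted replicates 3 or 6. Against restricted pigs the OAZ3 probe at 88, in the settings where it was the one lost, had an adjusted p in limma of 0.0566 to 0.103, and the cause was not tested. Other pathway probes passing numbered 1 in place of 0 for low-RFI against restricted pigs under quantile normalization, normexp, robust normexp, probes above background on all arrays, slide as a random block, trend and robust variance, and array weights, and for low-RFI against high-RFI pigs under array weights. That probe was SLC7A2. Without 1 pig these counts ran from 0 to 1. Replicate numbers were not treated as pairs, and correlations of same-numbered pigs ran from -0.301 to 0.331. The replicate block gave -3.83 for the probe at 451 against restricted pigs. Pigs resembled their own number most in 0 of 7 cases for low-RFI against high-RFI and 1 of 7 for low-RFI against restricted pigs. For restricted against high-RFI pigs it was 4 of 8, so pairing by number was not excluded there. Over the alternatives the count of all probes passing ran from 18 to 119, from 0 to 4 and from 15 to 99, and without 1 pig from 22 to 40, from 0 to 7 and from 18 to 68. Of 2946 recomputed differences, 2902 kept their side of the threshold and moved by less than the spread between pigs. The sign changed in 81, none of them past the threshold in either fit, such as the OAZ2 probe at 428 for low-RFI against restricted pigs (0.05, and -0.39 under quantile normalization). Probes near background, the OAZ3 probe at 451 in low-RFI pigs among them, give only an approximate bound.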

Other observations

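No probe was named AMD1, but TC480477, picked after its values were seen, is described in the files as S-adenosylmethionine decarboxylase, from a match to a hamster sequence. Its level was -1.78 to -0.67 in low-RFI pigs with a median of -1.49, -1.44 to -0.20 in restricted pigs with a median of -0.91, and -1.45 to -0.44 in high-RFI pigs with a median of -1.18. The difference was -0.52 for low-RFI against restricted pigs (standard error 0.20, 95% interval -0.93 to -0.11, adjusted p = 0.368 in limma), -0.33 for low-RFI against high-RFI (adjusted p = 0.57) and 0.19 for restricted against high-RFI pigs (adjusted p = 0.836), so none passed. As at ODC1, the interval against restricted pigs lay below 0 before adjustment. Of all probes, 10.2% had an unadjusted p under 0.05 in limma in that comparison. A joint change of these genes was not tested.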
